A study of Mus musculus with 6 samples.

Results

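The genes described here encode the 10 enzymes that turn squalene epoxide into lanosterol and lanosterol into cholesterol: Lss, Cyp51, Tm7sf2, Lbr, Msmo1, Nsdhl, Hsd17b7, Ebp, Sc5d and Dhcr7. They were chosen by name from the pathway, with earlier results of these data known. Each was read from the probe set that the platform annotation ties to that gene alone, with the highest mean where a gene has several. All 10 had such a probe set, among 22180 genes named in this way, and all 10 were among the 11090 genes tested, those whose mean signal ranked in the upper 50%. Liver RNA was measured in 6 male mice, each on 1 whole-transcript array: 3 lacked Gpr146, which encodes a G protein-coupled receptor, in the whole body (KO), and 3 were wild type (WT). The WT mice were littermates of the KO mice on a C57BL/6J background, and all were 24 weeks old, kept on chow, fasted for 16 hours and then refed for 6 hours. The gene is thus missing in other organs as well as in hepatocytes, and which part of it was deleted is not known here.

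Cholesterol synthesis in the endoplasmic reticulum begins with the mevalonate steps and reaches the sterols when squalene epoxide is folded into lanosterol. Lanosterol then loses its extra methyl groups, its ring double bond is moved and new double bonds are made and reduced until cholesterol is left. Most genes of the route are targets of SREBP2, a membrane-bound transcription factor that is released when sterols are scarce, and the liver is a main site of the synthesis.

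The 6 arrays had median log2 signals of 2.67 to 2.73. Gpr146 measured 5.56 to 5.96 in WT and 3.87 to 4.61 in KO (limma adjusted p = 0.0702), with KO mouse 3 the lowest. Markers of hepatocytes summed to 13.68 to 13.69 in WT and 13.65 to 13.70 in KO on the log2 scale, and Alb, the albumin gene, was at 11.92 ± 0.02 and 11.91 ± 0.01 (SD, n = 3 each). Among the markers of 8 other cell types 0 past the signal filter had an unadjusted p under 0.05. Pancreatic acinar markers were highest in WT mouse 1, at 6.04 against 4.38 to 4.68 in the other mice, and Kupffer cell markers in WT mouse 1 and KO mouse 3, at 8.22 and 7.99 against 7.32 to 7.57; the part of either in the results was not tested. Summed signals ran from 8.22 to 8.49 over the 6 mice for sinusoidal endothelial markers, 8.50 to 8.90 for stellate, 4.40 to 4.62 for bile duct and 3.55 to 3.75 for fat cells. T and B cell and neutrophil markers, at 3.95 to 4.31 and 3.01 to 3.21, each lay below the signal filter. In whole tissue, fewer cells of a type and less RNA per cell cannot be told apart.

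The comparison of KO with WT livers asks how this stretch of the pathway differs after refeeding when the receptor is missing. The mean of KO lay below the mean of WT for 10 of the 10 enzymes, with differences (KO minus WT, log2) from -0.96 for Hsd17b7 to -0.09 for Ebp and a median of -0.39, where the median over all genes tested was 0.0274. None passed the test: 0 of 10 had a limma adjusted p under 0.05 over all genes tested, where 0.0361% of genes did in either direction and 0.00902% were lower, and the adjusted p-values ran from 0.228 to 0.800. At an unadjusted limma p under 0.05, 6 of 10 were lower in KO (Hsd17b7, Lss, Msmo1, Cyp51, Lbr and Dhcr7) and 0 were higher. The background for that count was 2.98% of genes lower and 6.16% higher, and after quantile normalization 5.27% lower and 4.45% higher. The same 6 genes were those in which every KO value lay below every WT value, against a background of 5.16% (8.35% after quantile normalization), and in 0 of 10 did every KO value lie above, against 9.63%. For these the exact two-sided permutation p was 0.1, the smallest that 3 mice against 3 allow. Without KO mouse 3 the median was -0.24.

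**Figure D1:**
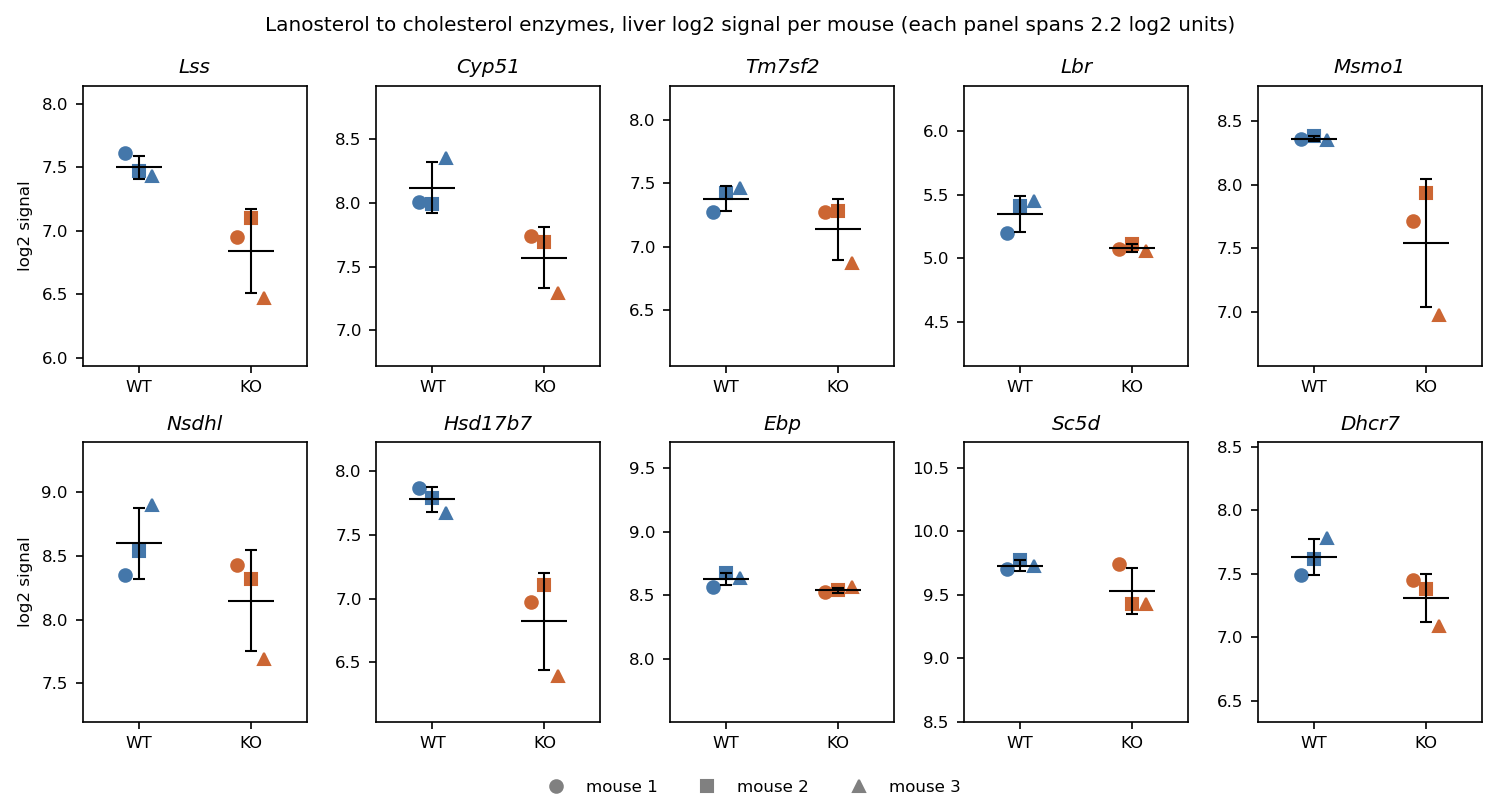
Log2 signal of the 10 enzymes in the liver of each mouse, in pathway order; symbols are mice 1 to 3 of each genotype, and bars give the mean ± SD (n = 3 each). KO values of Lss, Cyp51, Lbr, Msmo1, Hsd17b7 and Dhcr7 sit below all WT values. KO mouse 3 is the lowest in 9 of 10 panels, though barely so in Lbr and Sc5d.

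KO mouse 3 stood apart from the other KO mice in this pathway. It was the lowest of the 3 KO mice in 9 of 10 enzymes, the exception being Ebp, against 26.3% of all genes tested. The margin was slight in Lbr, at 5.06 against 5.07 in KO mouse 1. In Sc5d KO mice 2 and 3 both rounded to 9.43. Averaged over the 10 enzymes and set against the WT mean, KO mice 1, 2 and 3 were at -0.32, -0.32 and -0.73, and WT mice 1 and 3 at -0.07 and 0.07. KO mouse 1 lay below the lowest WT mouse in 8 enzymes, KO mouse 2 in 9 and KO mouse 3 in 9. With KO mouse 3 left out, 4 enzymes (Hsd17b7, Msmo1, Lss and Cyp51) had an unadjusted limma p under 0.05 and were lower, against 2.59% of all genes. In 7 the remaining KO values lay below every WT value, against 9.87% of all genes. The spread among KO mice exceeded that among WT mice in 8 of 10 enzymes (46.6% of all genes), with a median SD of 0.24 in KO and 0.10 in WT, where all genes had 0.12 and 0.13.

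**Figure D2:**
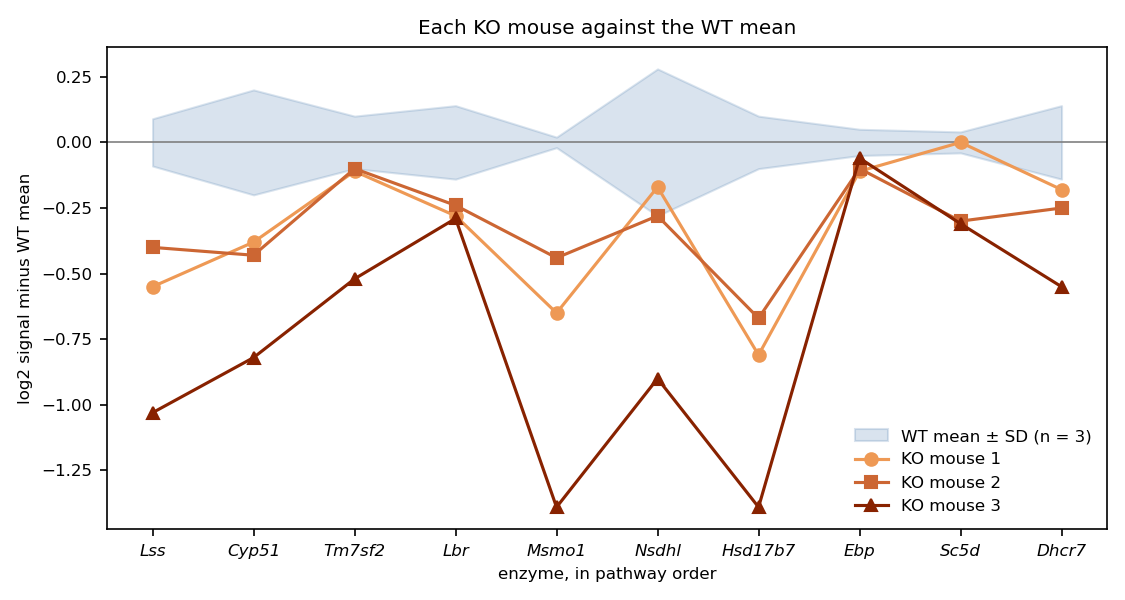
Log2 signal of each KO mouse minus the WT mean for the 10 enzymes in pathway order, with the shaded band giving the WT SD (n = 3). KO mouse 3 reaches -1.39 at Msmo1 and Hsd17b7 and lies close to the other KO mice at Lbr and Ebp.

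As the 10 differences shared a sign, the letters in front of some of their genes are shown. They are Hsd17b7 and Msmo1, which had the largest differences, Cyp51, and Ebp and Sc5d, which had the smallest. Lss, which is not shown, had a larger difference than Cyp51, at -0.66 against -0.54. The sequences are from RefSeq, build GRCm38.p6, read 5′ to 3′ along each gene, up to 200 bases before the annotated start and without bases inside the annotated gene. They lie at chr1:169969243-169969405 (minus strand), chr8:64733579-64733778 (minus strand), chr5:4104698-4104897 (minus strand), chrX:8193513-8193712 (minus strand) and chr9:42264301-42264500 (minus strand). Capitals mark CCAAT, the letters bound by NF-Y, and GGGCGG, the letters bound by Sp1, each on either strand; both factors are known partners of SREBP2 at sterol genes.
Hsd17b7: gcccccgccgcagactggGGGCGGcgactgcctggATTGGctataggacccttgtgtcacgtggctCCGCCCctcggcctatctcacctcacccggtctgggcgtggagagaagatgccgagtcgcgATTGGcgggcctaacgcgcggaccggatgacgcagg
Msmo1: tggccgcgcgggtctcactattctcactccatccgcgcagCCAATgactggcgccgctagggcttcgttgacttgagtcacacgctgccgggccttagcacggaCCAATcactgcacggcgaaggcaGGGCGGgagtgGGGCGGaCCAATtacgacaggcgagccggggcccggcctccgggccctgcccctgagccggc
Cyp51: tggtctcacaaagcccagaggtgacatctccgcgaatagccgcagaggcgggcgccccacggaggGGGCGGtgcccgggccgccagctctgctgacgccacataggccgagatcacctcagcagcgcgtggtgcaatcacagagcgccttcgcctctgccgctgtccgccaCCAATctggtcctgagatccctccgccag
Ebp: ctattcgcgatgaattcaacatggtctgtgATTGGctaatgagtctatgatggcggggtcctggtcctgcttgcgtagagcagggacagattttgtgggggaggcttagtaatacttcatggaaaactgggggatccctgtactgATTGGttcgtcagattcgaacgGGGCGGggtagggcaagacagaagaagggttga
Sc5d: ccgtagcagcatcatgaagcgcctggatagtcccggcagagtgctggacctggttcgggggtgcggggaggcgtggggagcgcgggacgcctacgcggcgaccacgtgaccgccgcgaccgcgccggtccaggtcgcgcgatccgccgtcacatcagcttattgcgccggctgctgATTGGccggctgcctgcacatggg

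All 10 genes had a promoter entry, 12 windows in all because Dhcr7 has 3 annotated starts, each window running from 250 bases before to 50 bases after a start. CCAAT was found in 10 of the 12 windows and GGGCGG in 11, each covering all 10 genes, and in 10 windows they occurred together. Of the 32851 RefSeq windows of that length, 37.4% held CCAAT, 35.7% GGGCGG and 12.8% both. For Dhcr7 the CCAAT matches were only at the start farthest inside the gene. The letters of the sterol response element TCACNCCAC, the SREBP2 site, were found on neither strand in any of the 12 windows, and in 1.24% of all windows. The looser letters TCACNNCA, added after the first search and allowed to overlap other motifs, occurred for 6 of 10 genes (15.7% of all genes with a window) and in 7 of the 12 windows (13.8% of all windows). Hsd17b7 and Cyp51 shared the match TCACCTCA, starting 117 and 88 bases before the start, and Ebp, Lss, Tm7sf2 and Lbr had none. These matches are letters, not measured binding.

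**Figure D3:**
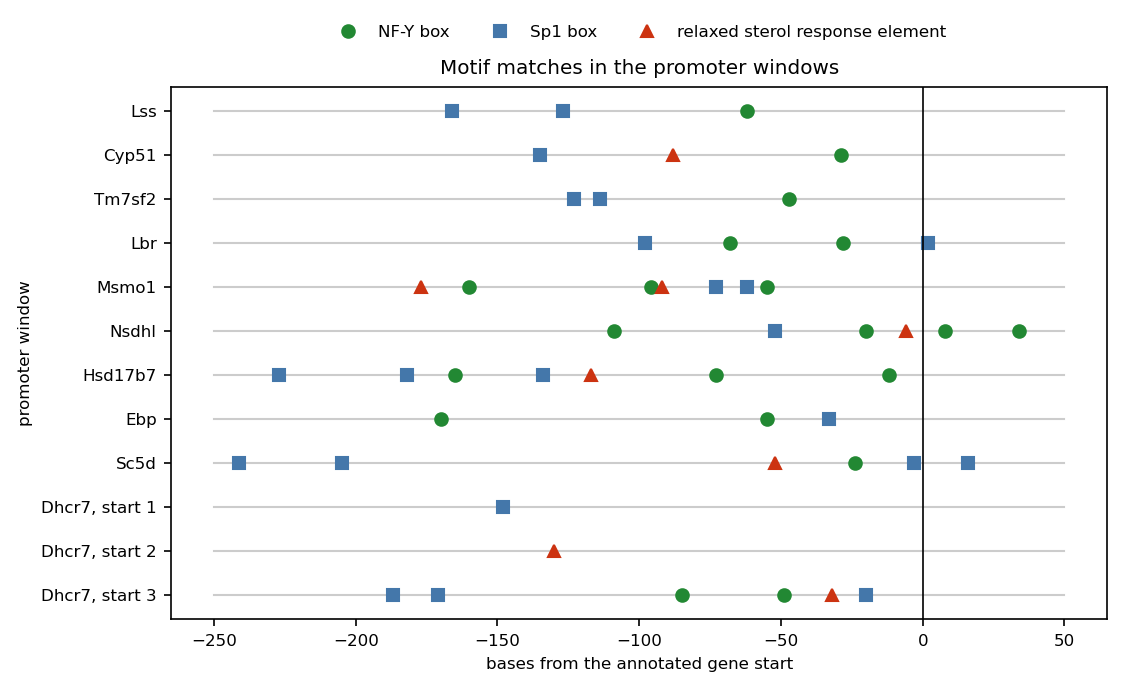
Positions of the NF-Y, Sp1 and looser sterol response element letters, in bases from the annotated gene start, in the 12 promoter windows of the 10 genes. CCAAT lies within 200 bases before a start in every gene, and no triangle marks Ebp, Lss, Tm7sf2 or Lbr.

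Lss, lanosterol synthase, closes the rings of squalene epoxide and makes the first sterol of the route. Its log2 signal in mice 1, 2 and 3 was 7.61, 7.47 and 7.43 for WT and 6.95, 7.10 and 6.47 for KO, and values of the other enzymes follow in the same order. Every KO mouse was lower than every WT mouse, with 0.33 between the nearest values. KO minus WT came to -0.66 ± 0.16 (SE; limma adjusted p = 0.308), so that WT signal was 1.58 times that of KO. Only 0.794% of the genes tested had a lower difference, and without KO mouse 3 it was -0.48.

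Cyp51, the cytochrome P450 that removes the C14 methyl group of lanosterol, measured 8.01, 7.99 and 8.35 in WT and 7.74, 7.69 and 7.29 in KO. The groups did not overlap, and WT mouse 3 was the highest and KO mouse 3 the lowest. The difference was -0.54 ± 0.15 (SE; limma adjusted p = 0.347), and it ranged from -0.63 to -0.43 with any mouse but KO mouse 3 left out and was -0.40 without that mouse.

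Tm7sf2 and Lbr both encode sterol reductases that act on the double bond left at C14, and Lbr is also a receptor of the inner nuclear membrane that holds lamin B and heterochromatin. Tm7sf2 measured 7.27, 7.42 and 7.46 in WT and 7.27, 7.28 and 6.87 in KO. KO mouse 2 lay above WT mouse 1, and KO mouse 3 alone was clearly below the WT range. The Tm7sf2 difference was -0.24 ± 0.13 (SE; limma adjusted p = 0.614) and -0.11 without KO mouse 3. Lbr measured 5.20, 5.41 and 5.45 in WT and 5.07, 5.11 and 5.06 in KO. Its 3 KO values were tight, with an SD of 0.03, and all lay below WT mouse 1. The Lbr difference was -0.27 ± 0.10 (SE; limma adjusted p = 0.469), and at -0.26 it was little altered without KO mouse 3. Read within each array, Lbr minus Tm7sf2 was -0.17, -0.14 and 0.22 in KO mice 1 to 3 relative to the WT mean, against -0.04, 0.02 and 0.02 in WT. The average shift between the pair was -0.03 and had opposite signs in KO mice 1 and 3 (exact permutation p = 1.0).

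Msmo1, Nsdhl and Hsd17b7 remove the methyl groups at C4 together: Msmo1 oxidises the methyl group, Nsdhl takes off the resulting carboxyl group, and Hsd17b7 reduces the ketone that is left. Msmo1 measured 8.36, 8.38 and 8.35 in WT and 7.71, 7.93 and 6.97 in KO. The WT mice were almost equal, with an SD of 0.02, while the KO mice spread with an SD of 0.50. The Msmo1 difference was -0.83 ± 0.21 (SE), or 1.77-fold higher signal in WT (limma adjusted p = 0.343), and -0.54 without KO mouse 3. Nsdhl measured 8.35, 8.54 and 8.90 in WT and 8.43, 8.32 and 7.69 in KO. Here KO mouse 1 lay above WT mouse 1 and the groups overlapped. The Nsdhl difference of -0.45 ± 0.21 (SE; limma adjusted p = 0.564) was -0.22 without KO mouse 3 and -0.30 without WT mouse 3.

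Hsd17b7 measured 7.87, 7.79 and 7.67 in WT and 6.97, 7.11 and 6.39 in KO. The nearest WT and KO values were 0.56 apart, the widest gap among the 10 enzymes. KO minus WT was -0.96 ± 0.18 (SE; 95% interval -1.36 to -0.55), with WT signal 1.94 times that of KO. Its limma adjusted p was 0.228 and its unadjusted p 0.000492, the rank of 22 among all genes tested, and 0.343% of genes had a lower difference. Without KO mouse 3 the difference was -0.74, with an unadjusted limma p of 0.000241 and an adjusted p of 0.297. Set against Nsdhl within each array, Hsd17b7 was at -0.64, -0.39 and -0.49 in KO relative to the WT mean, and at 0.34, 0.07 and -0.41 in WT. WT mouse 3 fell inside the KO range, so the 2 enzymes were not shown to shift unequally (mean -0.51, exact permutation p = 0.2, adjusted p = 0.4 over the 4 pairs compared). Hsd17b7 against Msmo1 and Msmo1 against Nsdhl shifted by -0.13 and -0.37 (exact permutation p = 0.3 and 0.2).

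Ebp, the isomerase that moves the ring double bond, measured 8.57, 8.68 and 8.64 in WT and 8.53, 8.54 and 8.57 in KO. The values of KO mouse 3 and WT mouse 1 met, and KO mouse 3 was the highest of the KO mice, unlike in any other of the 10 enzymes. The difference was -0.09 ± 0.09 (SE), with a 95% interval from -0.28 to 0.11 (limma adjusted p = 0.800). Ebp stayed between -0.12 and -0.06 whichever mouse was left out.

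Sc5d, the desaturase that adds a double bond to the B ring, measured 9.70, 9.77 and 9.73 in WT and 9.74, 9.43 and 9.43 in KO. KO mouse 1 lay within the WT range and KO mice 2 and 3 below it. The difference was -0.20 ± 0.11 (SE; limma adjusted p = 0.612), and -0.30 without KO mouse 1. Dhcr7, the reductase that acts last on the B ring, measured 7.49, 7.62 and 7.78 in WT and 7.45, 7.38 and 7.09 in KO. Its groups did not overlap but came within 0.04 of each other. The Dhcr7 difference was -0.32 ± 0.13 (SE; limma adjusted p = 0.5) and -0.21 without KO mouse 3.

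**Figure D4:**
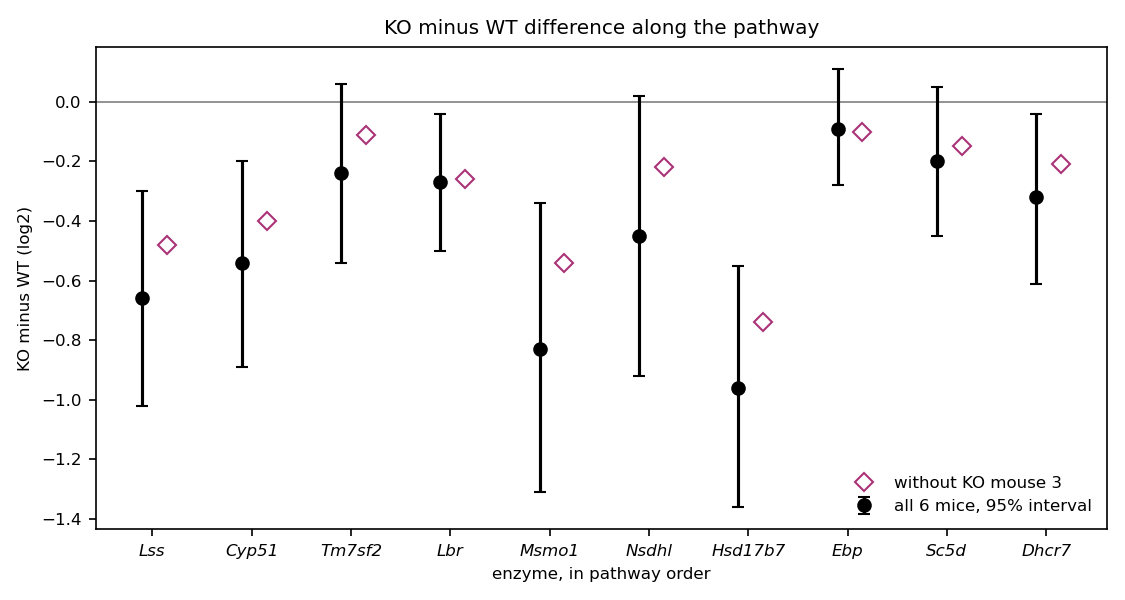
KO minus WT difference (log2) of the 10 enzymes in pathway order, as fitted by limma over all 6 mice with its 95% interval (filled circles), and without KO mouse 3 (open diamonds). The intervals of Tm7sf2, Nsdhl, Ebp and Sc5d include 0.

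Along the route, mean differences were as follows. The C4 demethylation genes Msmo1, Nsdhl and Hsd17b7 averaged -0.74, Lss and Cyp51 -0.60, the C14 reductases Tm7sf2 and Lbr -0.26 and the late genes Ebp, Sc5d and Dhcr7 -0.20. In KO mice 1, 2 and 3 the C4 genes averaged -0.54, -0.46 and -1.23 against the WT mean, and the late genes -0.09, -0.22 and -0.30. Lss and Cyp51 averaged -0.47, -0.42 and -0.93 in the same mice. The C4 genes were the lowest of these 4 groups in KO mice 1, 2 and 3 alike, by little in KO mice 1 and 2. Within the C4 group Nsdhl was at -0.17, -0.28 and -0.90, higher in KO mice 1 and 2 than either Lss or Cyp51. The inequality between groups was not tested.

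**Figure D5:**
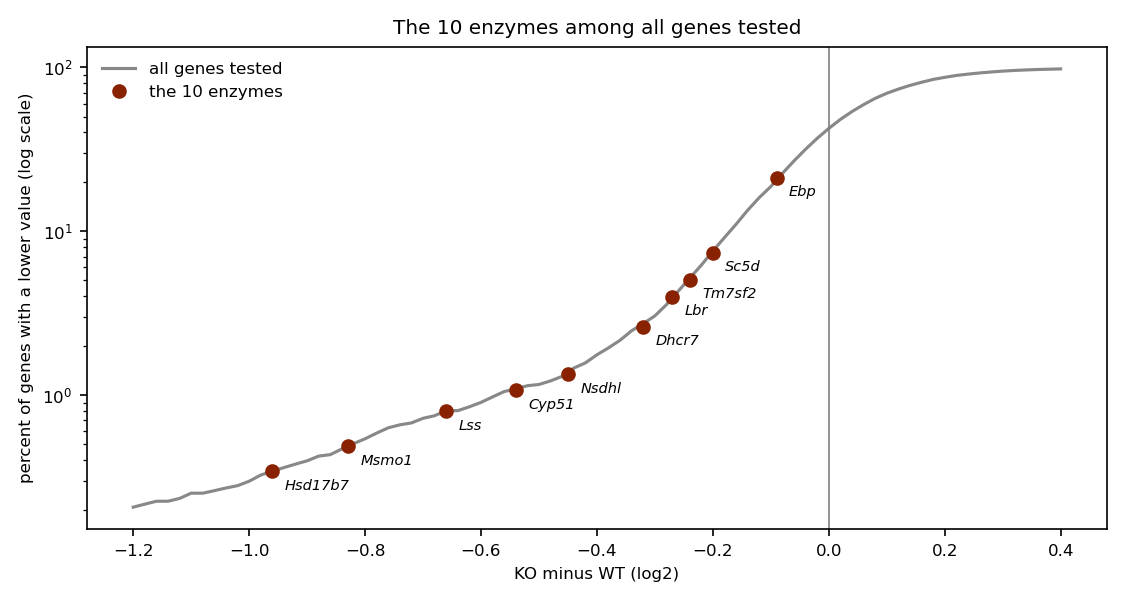
Percent of the 11090 genes tested whose KO minus WT difference (log2) lies below the value on the x axis (line, log scale on the y axis), with the 10 enzymes as points. Hsd17b7 stands at 0.343%, Msmo1 at 0.487%, Lss at 0.794% and Ebp at 21.2%.

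Upstream of lanosterol, 8 of 11 listed mevalonate to squalene epoxide genes were tested. None passed over all genes in limma (0 of 8), 7 were lower at an unadjusted p under 0.05 and 0 higher (2.98% and 6.16% of all genes), and their median difference was -0.63. Without KO mouse 3 that median was -0.39 and 6 of 8 were lower at an unadjusted limma p under 0.05 (2.59% of all genes). Pmvk, phosphomevalonate kinase, measured 7.94, 7.72 and 7.74 in WT and 7.02, 7.26 and 6.92 in KO, a difference of -0.73 ± 0.12 (SE; limma adjusted p = 0.210) that was -0.66 without KO mouse 3. Mvd, the decarboxylase after it, was at -0.73 ± 0.20, Hmgcs1, which makes the precursor of mevalonate, at -0.94 ± 0.26 and Mvk, mevalonate kinase, at -0.52 ± 0.17 (SE). Without KO mouse 3 these came to -0.48, -0.58 and -0.35. Hmgcs1 had the same outlying mouse as most of the 10 enzymes, at 9.27, 9.27 and 8.20 in KO mice 1 to 3 against 9.74 to 9.97 in WT. The gene of this list with a positive difference, at 0.19 ± 0.11 (limma adjusted p = 0.635), was Ggps1, which draws farnesyl diphosphate away from sterols; it was chosen after its value was seen.

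Electron donors, scaffolds and relatives of the enzymes had smaller differences. Of 10 listed genes 7 were tested, with a median of -0.16, and 0 had an unadjusted or adjusted limma p under 0.05. Tmem97, a relative of Ebp that binds sterols, was at -0.21 ± 0.10, Ebpl, the Ebp-like gene, at -0.17 ± 0.10, and Cyb5b and Cyb5r3, which pass electrons to desaturases and oxidases, at -0.16 ± 0.09 and -0.17 ± 0.10 (SE). Every KO value lay below every WT value for 3 of the 7, against 5.16% of all genes and 8.35% after quantile normalization.

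Of 6 sterol sensing genes, all tested, 0 passed over all genes in limma and Insig1 alone was lower at an unadjusted p under 0.05 (2.98% of all genes), and 0 of 6 were without KO mouse 3. Insig1, which holds the SREBP precursors back when sterols are plentiful, measured 10.35, 10.30 and 9.68 in WT and 9.80, 9.43 and 9.66 in KO. WT mouse 3 lay inside the KO range, and KO mouse 3 was not the lowest. The Insig1 difference was -0.48 ± 0.18 (SE, limma adjusted p = 0.484) and, at -0.50, did not shrink without KO mouse 3. Srebf2, which encodes SREBP2, was at -0.12 ± 0.13 (SE), Scap, its escort, at 0.17 ± 0.11, Insig2 at -0.03 ± 0.23 and the protease gene Mbtps1 at 0.07 ± 0.14. Srebf2 measured 6.91, 6.91 and 6.51 in KO against 6.82 to 6.99 in WT, so KO mouse 3 alone was below the WT range, and the difference was 0.01 without it. Of the 3 SREBP2 targets tested outside the pathway, 0 passed over all genes in limma and all 3 were lower at an unadjusted p under 0.05 and without overlap (2.98% and 5.16% of all genes). Stard4, a sterol carrier, was at -0.56 ± 0.14, Rdh11, a retinol dehydrogenase, at -0.57 ± 0.17 and Aacs, acetoacetyl-CoA synthetase, at -0.33 ± 0.12 (SE). Without KO mouse 3 the median of these 3 moved from -0.56 to -0.43 and 2 were lower at an unadjusted limma p under 0.05.

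The pattern of the 10 enzymes over the 6 mice, each gene centred on its own mean and averaged, ran 0.16, 0.23 and 0.29 for WT and -0.10, -0.09 and -0.50 for KO (mice 1, 2 and 3). Likeness to it was measured as the root mean square difference over the 6 mice, which was 0.312 for the median gene tested and would be 0.268 for a flat gene. The closest genes outside the 10 were Zc3h12d at 0.0509, Maged2 at 0.0528, Ly6d at 0.0703, Ptafr at 0.0848 and Aacs at 0.0911. Zc3h12d, Maged2, Ly6d and Ptafr had mean signals between 3.46 and 4.04, near the filter at 2.99. Among the 10 themselves Dhcr7 was closest, at 0.0866, followed by Cyp51 at 0.0980 and Tm7sf2 at 0.110. Hsd17b7 was farthest, at 0.283, followed by Msmo1 at 0.247, both with a larger difference than the average of the 10. Ebp stood at 0.239 with a smaller one. Each of the 10 is itself part of the averaged pattern.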

How the data were processed

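The authors deposited log2 signals of 41345 probe sets in 1 table, with a column for each of the 6 mice. Per the labels' protocols, 100 ng of Trizol-extracted RNA was turned into biotin-labelled cRNA and hybridised to an Affymetrix whole-transcript array. The summary method, normalization and build were not given in the sources used here. Values fit a log2 unit, with maxima of 12.11 to 12.23. The platform annotation gave 1 symbol to 23521 probe sets, several to 1814 and none to 16010; symbols were updated through Entrez numbers (23328 matched), and only single-symbol probe sets were used. KO was compared with WT by limma 3.58.1 in R 4.3.3 (lmFit, eBayes, two-sided, no covariate) with Benjamini-Hochberg adjustment over the 11090 genes tested at 0.05, and single values by exact permutation tests (scipy 1.17.1). The fit was tested on simulated data. The median SE of a difference was 0.11; the number of arrays limits the precision.

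The 10 enzymes, the neighbouring lists and the tests were chosen with earlier results of these data known. Named genes were the 10 enzymes, Gpr146, Alb, listed sterol sensing genes, up to 4 genes of smallest p per neighbouring list and the 5 genes most like the enzymes. Gene pairs compared within arrays were added later. Marker lists, summed on the linear scale, covered hepatocytes, bile duct, stellate, sinusoidal endothelial and Kupffer cells, neutrophils, T and B cells, fat and pancreatic acinar cells. Alternatives were the signal filter, the mean of probe sets, quantile normalization, median centring, a pseudocount of 16, trend and robust options, array weights, the replicate number as a block and each mouse left out.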

Additional observations from a re-analysis of the deposited data

How the results depend on the processing

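Each of the 10 enzyme differences kept its negative sign and stayed short of the threshold in all 15 alternatives; the lowest limma adjusted p reached was 0.126, for Hsd17b7. Enzymes lower at an unadjusted p under 0.05 numbered 4 to 7 with a mouse left out (2.30% to 3.59% of all genes) and 5 to 7 otherwise (2.79% to 5.27%). Enzymes with every KO value below every WT value numbered 6 to 9 (7.92% to 11% of all genes) and 6 to 8 (5.16% to 8.35%), and the median difference ran from -0.49 to -0.24 and from -0.41 to -0.36. Over all genes, 4 passed; the count was 0 in the upper 25% of signal, 1 with the pseudocount, 1 with the replicate block, and 1 to 51 with a mouse left out, with 51 when WT mouse 3 was dropped, 2 when WT mouse 1 was, and 1 for each remaining mouse. The cause of these shifts was not tested. Mice of the same number (1, 2 and 3) correlated at 0.055, -0.187 and 0.147 in their deviations from the group means. The highest correlations with a mouse of another number were 0.241, 0.241 and 0.139, so the same-number value was the higher for number 3 alone. With 3 mice per group, such values cannot decide whether the numbers pair the mice. Blocking on the replicate number in limma brought 5 enzymes below 0.05 before adjustment, all lower in KO, and 0 after it. The looser sterol response element letters, chosen after seeing the data, moved the count of enzymes with a match from 0 to 6. Mean signals of the 10 enzymes were 5.21 or higher, against a filter at 2.99.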
